A study of Saccharomyces cerevisiae with 16 samples.

Results

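Late starvation for phosphate was compared with an earlier window of the same time course in the yeast Saccharomyces cerevisiae, to ask what the late cells express that the early, stress-like cells do not. The late window holds the libraries of 165, 180 and 225 min after transfer to medium without phosphate, and the early window those of 45, 60 and 75 min, so that 6 of the 16 libraries of the course enter. Libraries were chosen by their labelled time. Those of 195 and 210 min lie inside the late span but were left out because they hold only 40984 and 45009 reads. A gene was compared when it had a value in all 6 libraries, which 4829 of 6648 named genes did, out of 5591 with a value in at least 1 of the 6.

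Every library comes from cells with the strain background BY4741 and the genotype pho84pr-YFP, delta-phm4. The promoter of PHO84 drives YFP in them as a reporter, and they are labelled as lacking PHM4. PHM4 is also called VTC1, and its protein belongs to the polyphosphate-making complex of the vacuole. Cells were grown in high phosphate, sampled there (0 min), washed and moved to medium without phosphate. The labels describe a single culture with 1 library per time and no replicate cultures, and no strain with intact PHM4 was analysed here. A difference between the windows is therefore a difference in time, and its p-value measures only the scatter among neighbouring samples of that culture. The 3 early libraries held 1043131 to 1874301 reads and the 3 late ones 766529 to 1548662, as recovered from the values. Genes under 10 reads have no value. VTC1 was listed in every library, against the deletion label, at 7.11 ± 0.31 log2 CPM (log2 of reads per 1000000, mean ± SD, n = 3 libraries) in the early window and 7.26 ± 0.27 in the late one, and no direction below is drawn from the deletion. All 6 MATa marker genes were listed in all 6 libraries (summed 4340 to 5500 CPM early and 5260 to 7020 late), whereas the 6 MATalpha markers summed to only 24.8 to 65.2 CPM.

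Yeast cells sense low phosphate through the PHO pathway, in which the kinase Pho80-Pho85 is inhibited by Pho81 and the transcription factor Pho4 then turns on phosphate transporters, phosphatases and polyphosphate genes. Nutrient limitation and stress also act on the growth programme. Cells lower the genes of ribosomes and ribosome assembly, and raise a general stress programme under the transcription factors Msn2 and Msn4, which bind the element AGGGG. Cells that stop growing for longer store glycogen and trehalose, shift towards respiration and make small protective proteins such as hydrophilins.

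Levels below are log2 CPM and differences are the late mean minus the early mean on the log2 scale, with the standard error of a limma fit over the 6 libraries. Calls needed an adjusted p under 0.05 (Benjamini-Hochberg over all 4829 genes) and a difference of at least 1, that is 2-fold. Rises lay in genes of stress, hydrophilins and glycogen and in the hexose transporters HXT5 and HXT7, and falls lay above all in genes of ribosomal proteins and of the methionine cycle. Of 4829 genes, 95 rose (1.97%) and 135 fell (2.8%), 230 in all (4.76%), and the median difference of all genes was 0.05. The rises ranged up to 3.63 (HPF1) and the falls down to -2.08 (SAM2), and the rises came from a broader set of genes: 104 of the 135 falls were cytosolic ribosomal protein genes. In bulk samples such as these, fewer cells with an RNA and less of it per cell cannot be told apart, and the values are shares of a fixed total.

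**Figure D1:**
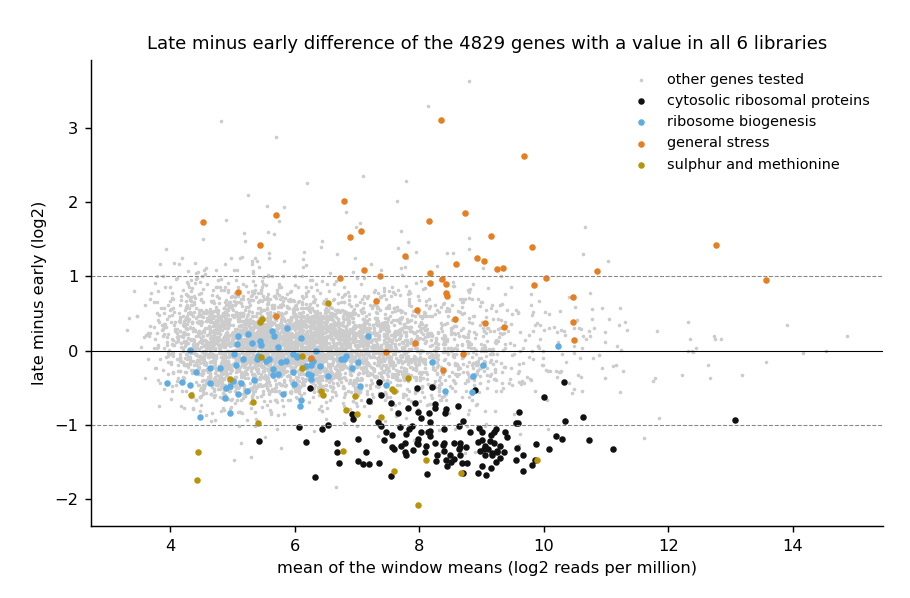
Late minus early difference (log2, vertical axis) of each of the 4829 genes against the mean of its window means (log2 CPM, horizontal axis), with 4 gene lists in colour and dashed lines at a difference of 1 in either direction. Cytosolic ribosomal protein genes (black) all lie below 0, from -1.70 to -0.42, and general stress genes (orange) lie mostly above 0, up to 3.11.

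Distances between libraries within a window overlapped in part with those between windows. Between 2 early libraries 1.8% to 5.88% of the genes were at least 2-fold apart, and between 2 late libraries 3.27% to 6.56%, against 6.36% to 12.6% between an early and a late library; the late pair of 165 and 225 min (6.56%) was farther apart than the early and late pair of 60 and 165 min (6.36%). All 3 late libraries lay above all 3 early ones in 14.9% of the genes and below them in 11.4%; among the called genes this was so for 94 of 95 rises and 134 of 135 falls. With each library left out in turn all 230 called genes kept their sign, but a gene whose windows do not overlap cannot change it. Of the 95 rises 56, and of the 135 falls 74, were called each time. The count of falls dropped to 86 without the library of 45 min, 82 of them shared.

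The 12 largest rises were led by genes of the cell surface, of desiccation and stationary phase, and by short open reading frames with no known role. HPF1, a cell wall mannoprotein (chromosome XV, 28703 to 31606, build R64), was at 6.67, 6.88 and 7.43 in the libraries of 45, 60 and 75 min and at 10.24, 10.41 and 11.20 in those of 165, 180 and 225 min. The windows lay far apart, and the difference was 3.63 ± 0.25 (SE), or 12.3-fold (adjusted p = 1.84e-06). At 0 min HPF1 stood at 6.25, so the early window lay only 0.74 above high phosphate. HXT5, a hexose transporter of moderate affinity known from slowly growing and stationary cells, had no value at 0 min, was at 3.42, 3.26 and 3.14 in the early libraries and reached 5.91, 6.0 and 7.20 in the late ones. Its difference of 3.09 ± 0.35 is 8.53-fold (adjusted p = 0.000143), with the highest level at 225 min. The HXT5 value at 60 min was the lowest listed in that library (3.26), and at 75 min the lowest was 2.88. The size of its rise thus rests on few early reads. HSP26, a small heat shock protein that holds unfolded proteins, was at 7.94, 8.62 and 8.57 early and at 10.69, 10.81 and 11.48 late, a rise of 2.62 ± 0.23 or 6.13-fold (adjusted p = 2.01e-05). All 3 of these genes had their highest level in the last library.

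**Figure D2:**
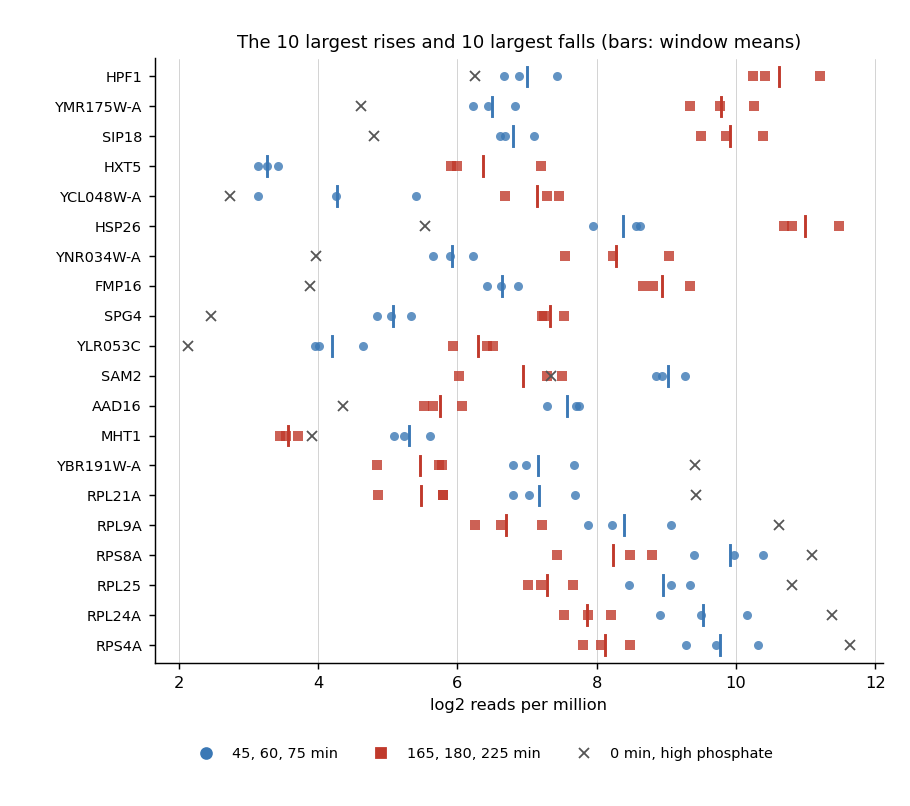
Level (log2 CPM) of the 10 genes with the largest rises, above, and the 10 with the largest falls, below, in the 3 early libraries (circles), the 3 late libraries (squares) and at 0 min (crosses), with bars at the window means. Early and late symbols do not overlap in any of these genes, and the falling ribosomal protein genes were already below their 0 min level in the early window, whereas SAM2 and AAD16 were above it.

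Hydrophilin genes and other genes linked to quiescence were among the largest rises. Hydrophilins are small, very soluble proteins linked to survival of drying. SIP18 (chromosome XIII, 611016 to 611255) was at 6.61, 7.10 and 6.68 early and at 9.85, 10.38 and 9.50 late, a rise of 3.11 ± 0.23 or 8.65-fold (adjusted p = 1.84e-06). GRE1, its relative, was at 5.36, 6.17 and 5.81 and then at 7.09, 7.83 and 8.49, a rise of 2.02 ± 0.31 (adjusted p = 0.00134). In SIP18 the highest library was 180 min and in GRE1 225 min, and in neither did the windows overlap. YMR175W-A rose by 3.29 ± 0.23; it starts at position 611314, next to the end of SIP18 and on its strand, and its values followed those of SIP18, so that the pair may not be separate signals. SPG4, named for survival of stationary phase, was at 4.85, 5.33 and 5.05 early and 7.22, 7.25 and 7.53 late (2.26 ± 0.22, adjusted p = 3.4e-05). FMP16, a mitochondrial protein of unknown role, was at 6.43, 6.87 and 6.63 early and 8.67, 8.81 and 9.34 late (2.29 ± 0.21). HSP12, a membrane-protecting hydrophilin, started from a high early level of 11.73, 12.48 and 11.95 and reached 13.55, 13.55 and 13.32 (1.42 ± 0.22, adjusted p = 0.00134). Of 14 tested members of the list of hydrophilins and quiescence-linked small proteins 7 rose and 0 fell, with a median difference of 1.16. The other 7 lay between 0.13 (NOP6) and 0.91 (RGI1). The list also holds genes that are not hydrophilins, SPG4, FMP16 and HUG1 among them, and its median was 0.80 without 75 min and 0.91 with values needed in only 2 libraries of each window.

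The 300 bases from 350 to 51 bases before the start codon are shown for a few genes on which the late pattern turns, from the RefSeq genome of build R64, each 5′ to 3′ on the gene's strand. First come 3 of the largest rises, with each AGGGG, the letters of the stress element, in capitals in either orientation (CCCCT on the other strand). YNR034W-A (chrXIV:692211-692510, plus strand) holds 2, HSP26 (chrII:381680-381979, plus strand) holds 1, and SIP18 (chrXIII:610666-610965, plus strand) holds 0. YNR034W-A was picked for having the most copies among the 12 largest rises, level with YBR285W.
YNR034W-A: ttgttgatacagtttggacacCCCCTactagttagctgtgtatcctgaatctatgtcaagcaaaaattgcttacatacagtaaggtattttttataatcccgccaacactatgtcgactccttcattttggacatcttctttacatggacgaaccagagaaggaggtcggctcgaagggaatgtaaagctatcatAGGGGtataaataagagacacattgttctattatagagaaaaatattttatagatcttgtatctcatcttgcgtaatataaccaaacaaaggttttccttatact
HSP26: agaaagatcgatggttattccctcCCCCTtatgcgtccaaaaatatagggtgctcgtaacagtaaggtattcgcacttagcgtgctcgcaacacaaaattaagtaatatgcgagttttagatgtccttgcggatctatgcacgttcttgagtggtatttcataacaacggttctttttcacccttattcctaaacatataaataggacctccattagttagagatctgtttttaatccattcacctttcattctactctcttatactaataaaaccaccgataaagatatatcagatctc
SIP18: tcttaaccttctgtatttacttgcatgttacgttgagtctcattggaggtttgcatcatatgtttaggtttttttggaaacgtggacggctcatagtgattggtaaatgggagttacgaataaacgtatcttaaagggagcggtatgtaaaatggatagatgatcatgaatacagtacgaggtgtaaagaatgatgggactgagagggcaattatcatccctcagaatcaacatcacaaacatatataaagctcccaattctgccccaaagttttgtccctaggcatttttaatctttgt
AGGGG stood, on either strand, in this window of 63.4% of the 93 rising genes with a window, against 23.8% of all 4723 genes with a window, 18.3% of 104 falling ribosomal protein genes and 13.8% of 29 other falling genes. At least 2 copies stood in 22.6% of the rising genes and in 3.98% of all. Of the 12 largest rises 9 held it; SIP18, SPG4 and GRE1 did not. In YMR175W-A the window reaches into SIP18. A match describes these letters only, not a bound site or a cause, and its absence from this window says nothing about a factor.

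The general stress list stood higher late, from a level that was already raised in the early window. Its median level was 4.85 at 0 min, 8.07, 8.11 and 7.68 in the early libraries and 8.91, 8.70 and 9.10 in the late ones. Of 47 tested members 23 rose and 0 fell, and the median difference was 0.98. CTT1, the cytosolic catalase, was at 6.45, 6.41 and 5.90 early and 7.98, 7.13 and 8.50 late (1.61 ± 0.29, adjusted p = 0.00279). DDR2, a small stress-induced protein, went from 7.32, 7.6 and 6.92 to 8.73, 8.71 and 9.63 (1.74 ± 0.25, adjusted p = 0.00101). PAI3, an inhibitor of the vacuolar proteinase Pep4, was almost level within the late window at 9.63, 9.68 and 9.66, against 7.6, 7.94 and 7.87 early (1.85 ± 0.17, adjusted p = 2.01e-05). In none of these did the windows overlap. Not all of the programme moved: RTC3, known as stress-inducible, was at 9.21, 8.68 and 7.63 early and at 8.42, 7.67 and 8.67 late, and the trehalose-6-phosphate synthase gene TPS1 was at 8.72, 8.82 and 8.64 and then at 8.62, 8.02 and 9.39. In both the windows overlapped, and neither RTC3 (-0.26 ± 0.33, adjusted p = 0.708) nor TPS1 (-0.05 ± 0.27, adjusted p = 0.943) passed the test. The members together took 2.69%, 3.48% and 2.45% of the reads in the early libraries and 6.23%, 5.66% and 5.58% in the late ones. YBR116C, which is on no list, had the same values as the transketolase gene TKL2 (1.73 for each), so this pair is a single signal.

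Heat shock chaperones under the transcription factor Hsf1 gave few calls, near the shares over all genes. Of 25 tested 1 rose and 1 fell (4.0% each, against 1.97% and 2.8% of all genes), and the median difference was -0.17. The member that rose was HSP78, a mitochondrial disaggregase, at 7.71, 7.79 and 7.42 early and 8.71, 8.28 and 9.07 late (1.05 ± 0.21, adjusted p = 0.00604). The member that fell was SSA2, an abundant cytosolic Hsp70 with a near-identical copy in SSA1, at 10.99, 10.50 and 10.27 and then 9.45, 9.18 and 9.95 (-1.06 ± 0.23, adjusted p = 0.009). Both calls were lost when single libraries were left out: HSP78 was at 0.93 without 75 min and at 0.86 without 225 min, and SSA2 at -0.86 without 45 min and at -0.88 without 180 min. HSP78 was also not called under centring (0.98) or library weights (0.91). SSA2 was also not called under quantile normalization (-0.99), with no variance trend (adjusted p = 0.0503) or on the slope (-0.92). HSP82, the inducible Hsp90, was at 10.31 ± 0.36 (SD, n = 3) early and 10.27 ± 0.51 late. The ribosome-associated Hsp70 genes SSB1 and SSB2, which are on no list and were picked after their values were seen, fell by 1.38 and by 1.12 on the log2 scale (adjusted p = 0.00163 and 0.00209).

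Genes of glycogen stood out within the storage carbohydrate list. GPH1, glycogen phosphorylase, was at 8.31, 8.78 and 8.05 early and 10.35, 9.76 and 9.66 late (1.54 ± 0.22, adjusted p = 0.00104). GLC3, the branching enzyme, was at 7.23, 7.14 and 6.56 and then 8.41, 8.09 and 8.57 (1.38 ± 0.22, adjusted p = 0.00135). GSY2, the main glycogen synthase, was at 5.82, 5.46 and 5.17 and then 6.67, 6.65 and 7.12 (1.33 ± 0.24, adjusted p = 0.00254). Synthesis and breakdown genes rose together, with no overlap of the windows in any of the 3. With PGM2, the main phosphoglucomutase (1.20), they made up the 4 of 17 tested members that rose; 0 fell and the median was 0.51. The trehalose synthase gene TPS1 stood at -0.05 and its regulatory subunit gene TSL1 at 0.73 (adjusted p = 0.0698), neither past the test.

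In hexose transport and glycolysis the calls fell on a few isozymes. HXT7, a high-affinity glucose transporter, was at 5.54, 5.24 and 3.79 early and 7.34, 6.55 and 6.48 late (1.93 ± 0.38, adjusted p = 0.00536); the call was lost when the difference was taken from a slope on time (1.53, adjusted p = 0.0722), and HXT7 has a near-identical neighbour in HXT6 with which it may share reads. With HXT5 it was 1 of 2 rises among 12 tested genes of hexose transport (16.7%, against 1.97% of all genes). HXT1 and HXT3, transporters of low affinity, were at 0.02 and -0.07. In glycolysis 2 of 22 rose (9.09%, against 1.97% of all genes). TDH1, the minor isozyme of glyceraldehyde-3-phosphate dehydrogenase, was at 9.52, 9.93 and 10.06 and then 11.33, 11.39 and 11.77 (1.66 ± 0.20, adjusted p = 0.00023), and the enolase gene ENO1 was at 10.50, 10.40 and 10.38 and then 11.58, 11.64 and 11.68 (1.21 ± 0.16, adjusted p = 0.000724). The sister isozymes TDH2, TDH3 and ENO2 were at -0.20, 0.20 and -0.03, none of them called. Paralogues can share reads, and how the counting dealt with that is not given in the sources used here.

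Genes of respiration had mostly positive differences, with few calls. In the list of oxidative phosphorylation 35 of 37 differences were positive and the median was 0.54. Of its members 5 rose and 0 fell (13.5% and 0.0%, against 1.97% and 2.8% of all genes). NDE2, an external NADH dehydrogenase, was at 4.45, 4.26 and 3.37 early and 5.42, 5.67 and 6.25 late (1.76 ± 0.34, adjusted p = 0.00434) and had no value at 0 min. CYC7, the second cytochrome c, was at 7.38, 7.62 and 6.63 and then 8.68, 8.46 and 7.88 (1.13 ± 0.26, adjusted p = 0.0146), whereas CYC1, the main cytochrome c, was at -0.49 (adjusted p = 0.171). CYC7 was not called without 75 min (0.84, adjusted p = 0.0558), without 165 min (0.96, adjusted p = 0.0762) or without 180 min (1.07, adjusted p = 0.0775), nor with no variance trend (adjusted p = 0.062) or on the slope (0.86, adjusted p = 0.137). The windows did not overlap in NDE2 or CYC7. The other calls were QCR7 of complex III (1.01), COX7 of cytochrome oxidase (1.08) and INH1, an inhibitor of the ATP synthase (1.11). INH1 was not called without 45 min (0.92) or without 180 min (0.96, adjusted p = 0.056), nor on the slope (0.95). The number of members called was 8 without the library of 60 min, 3 without 75 min and 1 without 180 min. ACO1, aconitase of the TCA cycle, went the other way, at 9.17, 9.55 and 9.95 and then 8.28, 8.41 and 8.95 (-1.01 ± 0.23, adjusted p = 0.0117). It was the 1 call among 21 tested TCA and glyoxylate genes (4.76% lower, against 2.8% of all genes). Without 75, 165 or 180 min it was not called (-0.81, -0.87 and -0.94). Mitochondrial ribosomal protein genes stayed at a median of 0.03, with 0 of 63 called in limma. At an unadjusted limma p under 0.05 there were 2 higher and 2 lower, against 574 and 447 of all 4829 genes.

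**Figure D3:**
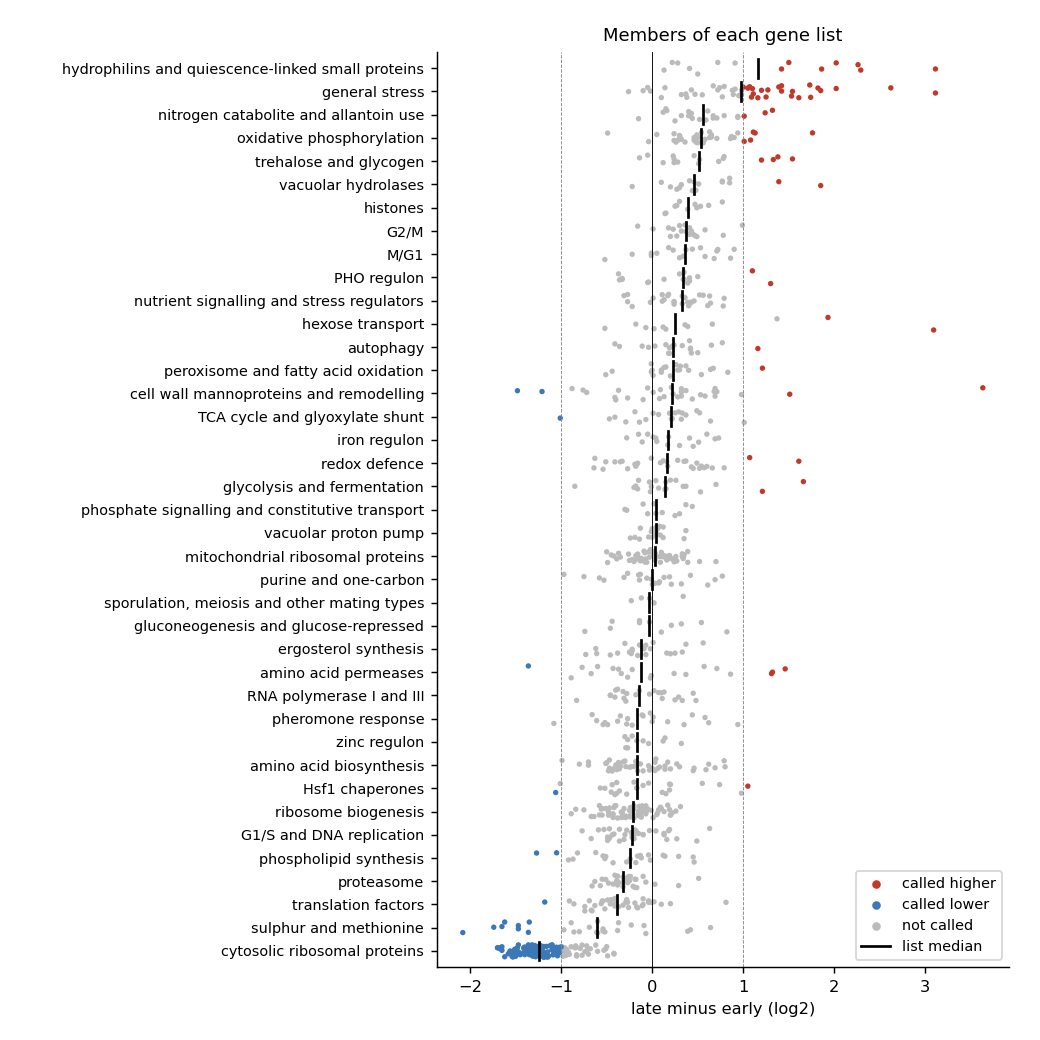
Late minus early difference (log2) of every tested member of each gene list, with a point per gene, with the list median as a black bar and dashed lines at a difference of 1 in either direction. Called members (red, blue) cluster in the lists of hydrophilins (median 1.16), general stress (0.98), sulphur and methionine (-0.61) and cytosolic ribosomal proteins (-1.24).

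The PHO regulon was already high in the early window and gave few calls. Its median level was 6.40 at 0 min, 9.08, 9.21 and 9.34 early and 9.75, 9.95 and 9.56 late. Of 17 tested members 2 rose and 0 fell (11.8% and 0.0%, against 1.97% and 2.8% of all genes), and the median difference was 0.34. PHM6, a protein of unknown role, was at 9.93, 10.15 and 9.88 early and 11.41, 11.52 and 10.91 late (1.30 ± 0.19, adjusted p = 0.00117). PHM8, a phosphatase that releases phosphate from nucleotides, was at 8.51, 8.84 and 8.73 and then 9.75, 10.07 and 9.56 (1.10 ± 0.18, adjusted p = 0.00188); it is also on the general stress list, and without the library of 180 min its difference was 0.96 and it was not called. In both genes the windows lay apart. The phosphate transporter PHO84 was at 10.29, 10.20 and 10.52 early and 10.46, 10.56 and 10.89 late, which overlap (0.30 ± 0.18, adjusted p = 0.371). PHO89, the sodium-coupled transporter, stood at 0.50 ± 0.22 (adjusted p = 0.206).

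Among the other PHO members the secreted acid phosphatases divided by sign without passing the test: PHO5 was at 0.39, PHO11 at -0.37 and PHO12 at -0.33 (adjusted p = 0.272, 0.279 and 0.316). PHO11 and PHO12 are near-identical copies that may share reads. VTC3 and VTC4, subunit genes of the polyphosphate complex, were lower in the mean, at -0.33 ± 0.17 and -0.36 ± 0.18 (adjusted p = 0.304 and 0.279), and VTC2 was level at -0.04 ± 0.16. PHO81, the kinase inhibitor, was at 0.13, PHO86, which takes Pho84 out of the endoplasmic reticulum, at -0.05 and SPL2, which lowers low-affinity uptake, at 0.35. The vacuolar phosphatase PHO8, the polyphosphatase PPN1, the glycerophosphodiesterase GDE1 and the glycerophosphoinositol transporter GIT1 were at 0.41, 0.41, 0.34 and 0.35, with no call. A difference that missed the test is not shown to be absent: the standard errors of these genes were 0.16 to 0.26.

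**Figure D4:**
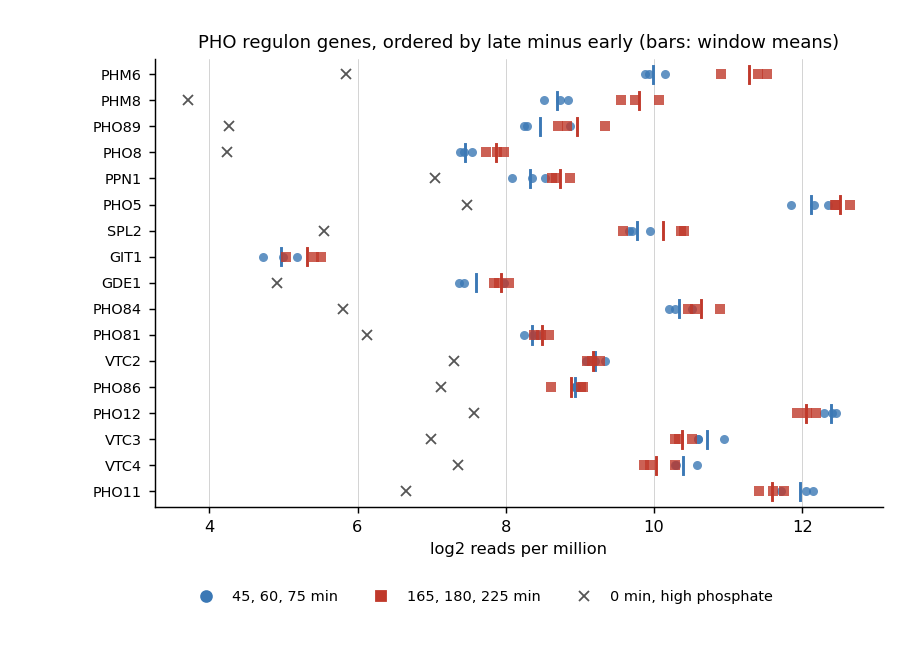
Level (log2 CPM) of the 17 PHO regulon genes in the early (circles) and late (squares) libraries and at 0 min (crosses), with bars at the window means and genes ordered by their difference. All members with a 0 min value stand above it in both windows, and PHM6 (1.30) and PHM8 (1.10) alone were called higher late.

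Genes of nitrogen catabolite use, which cells turn on when rich nitrogen sources run short, gave 3 calls, all of them rises. The median level of the list was 4.48 at 0 min, 5.51, 5.75 and 5.90 early and 6.35, 6.44 and 6.53 late. Of 22 tested members 3 rose and 0 fell (13.6% and 0.0%, against 1.97% and 2.8% of all genes). Of the members 19 were not called, 21 had a positive difference and the median was 0.55. DAL80, a GATA factor that represses the pathway, was at 4.85, 5.33 and 4.73 and then 5.93, 6.24 and 6.46 (1.24 ± 0.25, adjusted p = 0.00668). DUR3, a urea transporter, was at 4.96, 4.33 and 5.48 and then 6.15, 6.47 and 6.12 (1.32 ± 0.29, adjusted p = 0.00969). GZF3, a second GATA repressor, was at 5.28, 5.75 and 5.81 and then 6.79, 6.67 and 6.39 (1.01 ± 0.23, adjusted p = 0.0128). The windows of these 3 genes did not overlap, but 1 member of the list was called without the library of 180 min, where DUR3 was at 1.21 (adjusted p = 0.0618) and GZF3 at 0.98 (adjusted p = 0.0582). GZF3 was also not called without 45 min (0.84, adjusted p = 0.0738) or without 165 min (0.92, adjusted p = 0.0661), nor under centring (0.94), quantile normalization (0.92) or the slope on time (0.90). Of 20 tested permease genes 3 rose and 1 fell (15.0% and 5.0%, against 1.97% and 2.8% of all genes). GAP1, the general amino acid permease, was at 7.76, 7.85 and 8.06 and then 8.94, 9.33 and 9.32 (1.31 ± 0.18, adjusted p = 0.000763), and AGP1, a broad permease, was at 6.89, 6.89 and 7.48 and then 8.39, 8.59 and 8.65 (1.46 ± 0.20, adjusted p = 0.000745). The third rise was DUR3 and the fall was MMP1.

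The DAL80 window (chrXI:506548-506847, plus strand) is shown because it holds 3 copies of GATAAG, the letters read by GATA factors, in capitals (as CTTATC on the other strand).
DAL80: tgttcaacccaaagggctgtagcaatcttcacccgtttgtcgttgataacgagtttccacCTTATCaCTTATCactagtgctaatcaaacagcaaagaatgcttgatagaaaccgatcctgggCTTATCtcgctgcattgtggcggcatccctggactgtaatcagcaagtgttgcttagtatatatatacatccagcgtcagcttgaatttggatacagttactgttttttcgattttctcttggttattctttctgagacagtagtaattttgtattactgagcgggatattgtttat
GATAAG stood in this window of 24.7% of the rising genes, on either strand, against 14.3% of all genes with a window.

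Cytosolic ribosomal protein genes gave the largest group of falls. All 136 tested members had a negative difference, from -1.70 (RPL21A) to -0.42 (RPS27A), 104 fell, 0 rose and the median was -1.24. The list took 32.4% of the reads at 0 min, 13.3%, 10.1% and 7.97% in the libraries of 45, 60 and 75 min and 5.78%, 4.96% and 3.38% in those of 165, 180 and 225 min. RPL25, of the large subunit, was at 9.34, 9.07 and 8.46 early and 7.66, 7.20 and 7.01 late (-1.66 ± 0.24, adjusted p = 0.00098). RPS4A, of the small subunit, was at 10.31, 9.71 and 9.28 and then 8.48, 8.06 and 7.81 (-1.65 ± 0.25, adjusted p = 0.00117). RPS27A was at 7.42, 7.43 and 7.84 and then 7.05, 7.5 and 6.87, which overlap (adjusted p = 0.281). In RPL25 and RPS4A the values also went down with time within each window. Without the library of 45 min 61 of the 136 were called and the median was -1.01, and with the shallow libraries of 195 and 210 min added 0 were called and the median was -0.16. Many of these genes have near-identical copies that may share reads, and YBR191W-A, which fell with RPL21A, had the same values within 0.048.

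The RPS11B window (chrII:332481-332780, plus strand) holds 2 copies of ACCCNNACA, the core read by the factor Rap1, in capitals. It was picked for having the most copies among the falling ribosomal protein genes, so it is not typical of them.
RPS11B: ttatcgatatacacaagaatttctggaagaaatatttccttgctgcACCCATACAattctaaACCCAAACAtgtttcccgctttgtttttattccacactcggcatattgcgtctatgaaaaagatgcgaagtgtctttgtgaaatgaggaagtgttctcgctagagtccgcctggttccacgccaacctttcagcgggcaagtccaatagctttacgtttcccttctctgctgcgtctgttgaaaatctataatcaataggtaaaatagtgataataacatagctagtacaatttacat
RPS11B itself was at 10.06, 9.34 and 8.93 early and 8.40, 7.94 and 7.45 late (-1.51 ± 0.28, adjusted p = 0.00291). ACCCNNACA stood, on either strand, in this window of 25.0% of the 104 falling ribosomal protein genes and in 3.41% of all genes with a window. At least 2 copies stood in only 1.92% of those 104 genes and in 0.127% of all.

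The rest of the growth machinery moved less. Ribosome biogenesis genes, which build ribosomes in the nucleolus, had a median level of 7.96 at 0 min, 5.43, 5.46 and 6.65 early and 5.35, 5.78 and 5.81 late, so the windows overlapped. Of 73 tested 0 were called in limma in either direction and the median difference was -0.21. At an unadjusted limma p under 0.05 there were 0 higher and 4 lower, against 574 and 447 of all 4829 genes. Of 38 translation factors 1 fell (2.63%, against 2.8% of all genes), and the list median was -0.39. It was TEF2, a gene of the elongation factor EF-1 alpha, from 12.31, 12.14 and 12.13 to 11.30, 10.74 and 11.00 (-1.18 ± 0.19, adjusted p = 0.00148). Its near-identical copy TEF1 was at -0.91 (adjusted p = 0.0205), short of the minimum difference. ASC1, a ribosome-bound protein, and STM1, which clamps idle ribosomes, are on no list and were picked after their values were seen; they fell by 1.37 and by 1.38 on the log2 scale. A snoRNA gene lies within ASC1 and may share its reads. Of 34 proteasome genes, of 50 genes of amino acid synthesis and of 23 genes of RNA polymerases I and III 0 were called in limma, at medians of -0.32, -0.17 and -0.14. At an unadjusted limma p under 0.05 the proteasome had 1 higher and 10 lower, amino acid synthesis 6 and 6, and the polymerases 0 and 1. Over all 4829 genes these counts were 574 higher and 447 lower.

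Genes of sulphur and methionine metabolism made up 8 of the 31 falls outside the ribosomal proteins, and the early window of this list had been above high phosphate. The median level of the list was 5.68 at 0 min, 6.45, 7.08 and 6.96 early and 6.34, 6.47 and 6.18 late. Of 27 tested members 8 fell and 0 rose, and the median was -0.61. SAM2, S-adenosylmethionine synthetase (chromosome IV, 1453310 to 1454464), was at 7.35 at 0 min, at 9.27, 8.94 and 8.85 early and at 7.29, 7.5 and 6.03 late (-2.08 ± 0.30, 4.22-fold, adjusted p = 0.00104). SAM1, its near-identical sister, was at 8.32, 8.31 and 8.56 and then 7.10, 6.88 and 6.36 (-1.62 ± 0.21, adjusted p = 0.000497). In both the lowest library was 225 min and the windows lay apart; the pair may share reads. SAH1, which clears S-adenosylhomocysteine, was at 9.25, 8.51 and 8.77 and then 7.42, 7.38 and 7.32 (-1.47 ± 0.20, adjusted p = 0.00073). MET6, methionine synthase, was at 10.42, 10.67 and 10.77 and then 9.52, 9.43 and 8.52 (-1.47 ± 0.24, adjusted p = 0.00158). The calls thus take in the synthesis of methionine, of its activated form and the recycling of the by-product. MET17, a sulphur gene among the strain checks, had no value in any library and could not be compared.

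CYS3, which makes cysteine from cystathionine, was level with high phosphate in the early window (9.38, 9.41 and 9.69 against 9.44 at 0 min) and at 7.76, 7.66 and 8.11 late (-1.65 ± 0.18, adjusted p = 0.000143). MHT1, which makes methionine from S-methylmethionine, was at 5.09, 5.61 and 5.23 and then 3.46, 3.71 and 3.54 (-1.74 ± 0.31, adjusted p = 0.00228). Its value at 180 min was the lowest listed in that library (3.71), and at 165 min the lowest was 3.32. The size of its fall thus rests on few late reads. MMP1, the permease for S-methylmethionine, whose gene neighbours MHT1, fell by 1.36 (adjusted p = 0.039), but was not called without 45, 60, 75 or 225 min. MET14, a kinase of sulphate assimilation, fell by 1.35 (adjusted p = 0.0153). The regulators MET4 and MET31 did not fall, at 0.64 and 0.39, and were not called.

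The SAM2 window (chrIV:1454515-1454814, minus strand) is shown as the largest fall, with CACGTG, the E-box read by Cbf1 and Pho4, and CTGTGG, the core read by Met31 and Met32, in capitals.
SAM2: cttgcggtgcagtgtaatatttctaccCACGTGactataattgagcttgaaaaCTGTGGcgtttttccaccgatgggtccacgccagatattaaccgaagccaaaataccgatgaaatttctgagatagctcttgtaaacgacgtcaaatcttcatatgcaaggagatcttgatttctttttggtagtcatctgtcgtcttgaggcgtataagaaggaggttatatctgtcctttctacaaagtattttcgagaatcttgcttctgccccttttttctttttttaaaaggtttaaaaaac
CTGTGG stood, on either strand, in 31.0% of the 29 falling genes outside the ribosomal proteins that have a window and in 7.54% of all genes with a window, and CACGTG in 17.2% and 4.26%.

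Both genes of phospholipid methylation, a major user of S-adenosylmethionine, fell as well. OPI3, the methyltransferase of the last steps to phosphatidylcholine, was at 10.60, 10.35 and 9.75 and then 9.38, 9.05 and 8.46 (-1.27 ± 0.25, adjusted p = 0.00495). CHO2, the methyltransferase of the first step, was at 9.40, 9.03 and 8.87 and then 8.15, 7.85 and 8.16 (-1.05 ± 0.19, adjusted p = 0.00254); without 45 min it was at -0.90 and without 180 min at -0.95, short of the minimum. The windows lay apart in both. They were the 2 calls among 23 tested phospholipid genes (8.7% lower, against 2.8% of all genes), whose median was -0.24. Outside the lists, AAD16, a putative aryl-alcohol dehydrogenase, was the second largest fall: it was at 4.36 at 0 min, at 7.75, 7.70 and 7.29 early and at 5.65, 6.06 and 5.52 late (-1.84 ± 0.22, adjusted p = 0.000246).

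A few further calls came from other lists, most of whose members were not called. Over all genes 1.97% rose and 2.8% fell. Rises made up 6.25% of the cell wall list, 11.8% of vacuolar hydrolases and 5.0% of autophagy. They made up 6.45% of redox defence and 4.55% of peroxisome genes, and falls made up 6.25% of the cell wall list. Each of these shares rests on 1 or 2 genes. Of 32 cell wall genes 2 rose, HPF1 and the chitin deacetylase gene CDA1, which is otherwise known from spore walls, at 7.79, 8.41 and 7.93 and then 9.58, 10.08 and 9.0 (1.51 ± 0.25, adjusted p = 0.00176). Those that fell were TIR1, a mannoprotein of cold and anaerobic growth, at 5.72, 5.58 and 5.98 and then 4.64, 3.84 and 4.37 (-1.48 ± 0.29, adjusted p = 0.00445), and UTR2, a chitin transglycosylase (-1.21). Of 17 tested genes of vacuolar hydrolases and their inhibitors 2 rose, the inhibitors PAI3 and PBI2, PBI2 from 5.25, 5.80 and 6.14 to 6.89, 7.26 and 7.21 (1.39 ± 0.24, adjusted p = 0.00227), while the proteases they inhibit, PEP4 and PRB1, were at 0.27 and 0.77 and were not called. ATG8, the membrane-anchored protein of autophagosomes, was at 6.80, 6.76 and 6.35 and then 7.81, 7.63 and 7.97 (1.16 ± 0.20, adjusted p = 0.00207), the 1 rise among 20 tested autophagy genes. GRX1, a glutaredoxin (1.07), was 1 of 2 rises among 31 redox genes, with CTT1, and PXA2, a peroxisomal transporter of fatty acids (1.21), was the 1 rise among 22 peroxisome genes. GRX1 was at 0.93 without 45 min and at 0.96 without 165 min. Histone genes and those of G1/S, G2/M and M/G1 phases (11, 37, 19 and 18 tested) had 0 calls in limma, at medians of 0.39, -0.22, 0.37 and 0.35. At an unadjusted limma p under 0.05 they had 5, 1, 4 and 6 higher and 0, 4, 0 and 1 lower. Over all 4829 genes these counts were 574 higher and 447 lower.

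A few of the genes that rose late had not been above high phosphate in the early window. The differences of the early window from 0 min and of the late from the early window use the same early libraries, so they are given side by side only, and 0 min is a single library. Picked after their values were seen, OLE1, the fatty acid desaturase, was at 9.46 at 0 min, at 6.74, 7.24 and 7.88 early and at 8.49, 8.64 and 8.72 late (1.33 ± 0.24, adjusted p = 0.00291). DUS1, which makes dihydrouridine in tRNA, was at 6.10 at 0 min, at 5.93, 6.07 and 6.48 early and at 7.95, 8.41 and 7.10 late (1.66 ± 0.28, adjusted p = 0.00212). FOL1, of folate synthesis, was at 6.38 at 0 min, at 6.17, 6.26 and 6.65 early and at 7.57, 7.78 and 7.44 late (1.24 ± 0.20, adjusted p = 0.00167). OLE1 thus came back towards its 0 min level, while DUS1 and FOL1 went above it. Of the 95 rising genes 46 were on none of the 40 lists, against 3715 of the 4599 genes not called. The lists were chosen with earlier results of these data known, so nothing is drawn from this comparison. A systematic name only was held by 21 of the 95 and by 656 of the 4599. Among the 21 were YCL048W-A (2.87 ± 0.42, adjusted p = 0.00113), YLR053C (2.09 ± 0.28, adjusted p = 0.000713) and YBR285W (2.02 ± 0.21, adjusted p = 9.67e-05).

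A few genes were listed in 1 window only and could not be fitted. In all 3 late libraries and no early one were HBT1, a protein of the mating projection, at 4.17, 4.29 and 4.12, SFC1, a mitochondrial carrier of succinate and fumarate, at 3.70, 3.84 and 3.46, and YGR107W at 3.32, 4.97 and 2.95. These values rest on 10 to 27 reads. The early floors lay at 2.42 to 3.26, and YGR107W at 225 min (2.95) was under the highest of them. The 8 genes listed early only included INO1, which makes inositol phosphate, at 6.02, 4.85 and 3.81 with late floors of 2.69 to 3.71. INO1 was the strongest of them, with up to 122 reads. The others were FRM2, GAL2, YER085C, YER088W-B, TSR1, RLI1 and TRL1, at 10 to 35 reads. Each of these others had its lowest early value, from 2.55 (RLI1) to 3.4 (FRM2), under the highest late floor of 3.71. Their lack of late values therefore does not show a fall. With single libraries left out, which can only keep or raise these counts, they were 4 to 22 late, with 22 without 45 min, and 11 to 57 early, with 57 without 225 min.

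The libraries between the windows show that the late state did not follow straight from the early one. The median of the ribosomal protein list was 8.83 at 75 min, 10.28 at 105 min and 9.82 at 135 min, then 8.87 at 150 min and 8.07, 7.93 and 7.51 late. The general stress median was 7.68 at 75 min, 6.44 at 105 min and 7.20 at 135 min, then 9.02 at 150 min and 8.91, 8.70 and 9.10 late. The hydrophilin median was 5.78 to 5.96 from 90 to 135 min, with 7.14 at 150 min and 7.95, 7.82 and 8.19 late. The library of 150 min thus stood at the late level for stress genes but at the early level for ribosomal protein genes, and between the windows for hydrophilins. HPF1 instead went up in every deeper library from 45 to 225 min, through 7.51, 7.73, 8.35, 8.72 and 9.92 between the windows.

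**Figure D5:**
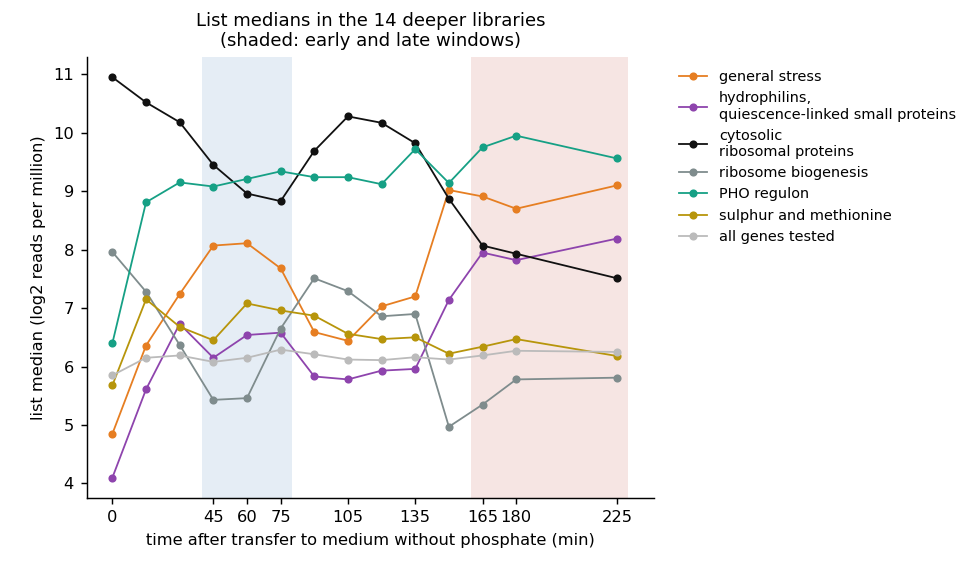
Median level (log2 CPM) of 6 gene lists and of all genes tested against time after transfer (min) in the 14 deeper libraries, with the early window shaded blue and the late window red. Ribosomal protein genes peak between the windows at 10.28 (105 min) and end at 7.51, while the stress median dips to 6.44 at 105 min and stands at 9.10 at the end.

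The counts of calls over all genes were much smaller with the shallow libraries of 195 and 210 min. When they were added to the late window 21 genes rose and 2 fell. Of the 95 rises 22 have a value in both of these libraries and 31 in at least 1, so the late mean of the others could not change. HPF1 and SIP18 were still called, at 3.11 and 2.6, while HSP26 (1.81), PHM6 (0.69) and SAM2 (-1.66) were not. VTC1 stood at 10.8 and 10.9 in these libraries, against 6.67 to 7.51 in the 14 deeper ones.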

How the data were processed

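RNA of 16 samples of a yeast time course was sequenced, and the authors deposited a table of log2 values per gene and library. Raised back, each library sums to 1000000, so from the values they are log2 reads per 1000000 (CPM), although the series description speaks of normalization to the first time point. Reads were aligned with Bowtie to build R64, per the submitters' processing notes. The counting program, its annotation and its treatment of strand and of multiple matches are not given in the sources used here. Low values are multiples of a step: taking the lowest value as 10 reads, 94.6% to 97.5% of low values (up to 100 reads) in the 14 deeper libraries were whole within 0.01 reads, and depths rest on this. Below this floor the table is empty, and nothing was added before taking differences. Of 6701 entries, 51 unnamed and empty ones and 1 duplicated name were dropped. Of the 6648 genes left 5963 matched the R64 annotation.

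The contrast was fitted here with limma 3.58.1 in R 4.3.3 (lmFit, eBayes with a mean-variance trend, two-sided), on the 6 libraries alone and all 4829 genes, and adjusted by Benjamini and Hochberg. On simulated data of 4829 genes, 97% of changes of 1.5 (log2) and 100% of changes of 2.5 were called, with 6 unchanged genes called. Recovery of changes near the minimum of 1 was not tested. Recovery with levels that drift in time within a window was not tested either. These figures are therefore not applied to the calls reported here. An exact permutation test of 3 libraries against 3 cannot go below p = 0.1, so it was not used. Members and lists were chosen with earlier results of these data known, and list counts and medians carry no test; 58 genes are on more than 1 list. Named genes are the 12 largest rises and 12 largest falls, up to 3 called members of each list, the PHO regulon, up to 6 genes for each window listed in that window alone, and strain checks; 1 gene that the rule names is not reported here, and genes picked outside it are said to be so, or are given as values within their list. Upstream windows were read from the R64 genome. Alternatives covered scaling, variance model, filters, thresholds, a slope on time, each library left out, the 2 shallow libraries added and, chosen after seeing the data, genes with the same values within 0.1 counted once.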

Additional observations from a re-analysis of the deposited data

Results flagged for a closer look

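In the 5 libraries from 90 to 150 min, which lie between the windows, 16 of 109 groups of values had a library apart from the others by Dixon's ratio. Chance sets apart about 1 group in 20, and these groups share libraries. The library set apart most often was that of 150 min. It was highest in the medians of the hydrophilins (7.14 against 5.78 to 5.96) and of oxidative phosphorylation (7.69), and lowest in those of ribosome biogenesis (4.97 against 6.86 to 7.51) and pheromone response (5.61). Among genes it was highest in YMR175W-A (7.48), SIP18 (7.64), YNR034W-A (8.31), HSP78 (9.01), TDH1 (10.88), HXT7 (6.92), PAI3 (8.63) and GRX1 (10.87). The library of 90 min was highest in the G1/S median (6.41) and in CYS3 (9.33), that of 135 min in the PHO regulon median (9.72), and that of 120 min lowest in PHO8 (6.90). Outside the windows VTC1, labelled as deleted, was at 10.8 and 10.9 in the shallow libraries of 195 and 210 min, against 6.67 to 7.51 in the 14 deeper ones.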

How the results depend on the processing

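Neither count of calls is fixed by the data alone. Against 95 rises and 135 falls, adding the libraries of 195 and 210 min gave 21 and 2, and a minimum difference of 2 gave 12 and 1. Dropping the minimum gave 174 rises and 195 falls. With each library left out the rises ranged from 70 to 129 and the falls from 86 (without 45 min) to 137. The genes listed late only ranged from 4 to 22 and those listed early only from 11 to 57. Under centring, quantile normalization, no variance trend, a robust fit, library weights, 2 values a window, a mean of 50 CPM, missing values at the floor and a slope on time the rises were 67 to 107 and the falls 119 to 146; 61 of the rises and 98 of the falls were called under each of 8 of these. Counting genes with the same values once gave 94 and 134. PHO86 turned positive at 0.06 (quantile), 0.01 (weights), 0.09 (without 225 min) and 0.02 (195 and 210 min added), VTC2 at 0.09 (quantile), 0.03 (without 75 min), 0.0 (without 165 min) and 0.03 (195 and 210 min added), and VTC1 reached -0.0 without 45 min. With each library left out these 3 genes ranged from -0.13 to 0.09, from -0.1 to 0.03 and from -0.0 to 0.31. None of these was called. The cause was not tested. No paired analysis was possible because the labels give no replicate numbers that pair early with late samples.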
